A study of Mus musculus with 27 samples.

Results

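Siglecs and other inhibitory-type receptors of myeloid cells were followed in mouse alveolar macrophages during lung injury. The set was a list of 8 named genes, Siglecf, Siglec1, Siglece, Siglecg, Cd33, Cd200r1, Cd200r4 and Sirpa, out of 38124 genes in the deposited count table, and all 8 were found and passed the filter on low counts. Messenger RNA had been sequenced from macrophages that were washed from the airways of C57B/6 mice aged 8 to 14 weeks and separated by flow sorting. Recruited macrophages (CD11c-CD11b+) came from days 3, 6, 9 and 12 after lipopolysaccharide (LPS, a component of bacterial outer membranes) had been instilled into the trachea. Resident macrophages (CD11c+CD11b-) came from the same 4 days, and from untreated mice, called day 0. Each of these 9 groups had 3 libraries, 27 in all. There was no untreated recruited group, so recruited cells were set against resident cells of the same day or against recruited cells of day 3.

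Siglecs are receptors of the immunoglobulin family that bind sialic acids, the acidic sugars at the tips of cell surface glycans. Many carry immunoreceptor tyrosine-based inhibitory motifs (ITIMs), which, once phosphorylated by Src-family kinases, recruit the phosphatases SHP-1 and SHP-2 and dampen activating signals. CD200R1, which signals through Dok adaptors, and the ITIM-bearing SIRPα restrain macrophages on meeting their ligands CD200 and CD47, and in the alveolus SIRPα also binds the surfactant proteins. Siglec-F is a standard surface marker of resident alveolar macrophages in the mouse. The 8 genes are not all inhibitory: sialoadhesin (Siglec1) has no ITIM, and CD200R4 is an activating-type relative of CD200R1 that couples to the adaptor DAP12.

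Library totals were 11093216 to 18299674 counts (median 14859352), and reads outside annotated genes were 6.77% to 13% in 26 libraries and 26.5% in recruited day 6 replicate 2. The summed level of 18 resident alveolar macrophage markers was 3880 to 14100 CPM (read counts scaled to a common library size, with TMM factors) in recruited libraries, against 23400 to 41800 CPM in resident libraries. The sum of 13 classical monocyte markers was 10600 to 23700 CPM in recruited libraries, against 1440 to 12200 CPM in resident libraries, so the ranges of the monocyte sum overlapped. Numbers lead the column names of the table of unassigned reads, and they were grouped by eye into runs that no label defines. 4 libraries share the run of 12, 13, 17 and 18: resident day 9 replicate 2, resident day 12 replicate 1, recruited day 9 replicate 2 and recruited day 12 replicate 1. Number 19, resident day 0 replicate 2, was put in another run. The 2 resident libraries of the shared run had monocyte marker sums of 12200 and 10600 CPM, against 4810 to 6460 CPM in the other resident libraries of days 9 and 12. Such a sum need not follow most of its markers, as the Siglece values below show. The labels do not say whether libraries of a group came from separate animals, so the p-values may measure only technical spread between libraries. In bulk RNA, fewer cells of a type and less RNA per cell cannot be told apart.

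Averaged over days 3 to 12, recruited macrophages held less Siglecf, Siglec1, Sirpa and Siglece RNA than resident macrophages and more Siglecg RNA, while Cd33, Cd200r1 and Cd200r4 did not pass the test. Here and below, a change is a log2 ratio ± its standard error from edgeR's quasi-likelihood test, called at a Benjamini-Hochberg adjusted p under 0.05 over 13599 genes. With 5 of 8 genes called, against 60.3% of all tested genes, the number called was near the background. It was 5 of 8 on day 3 (background 46.6%), 3 of 8 on day 6 (35.0%), 5 of 8 on day 9 (32.0%) and 4 of 8 on day 12 (27.3%). The sizes spread widely, from -4.20 ± 0.33 for Siglecf to 1.27 ± 0.30 for Siglecg, with Cd33 nearest to 0 and a median of -0.18 over the 8 genes and 0.02 over all tested genes.

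**Figure D1:**
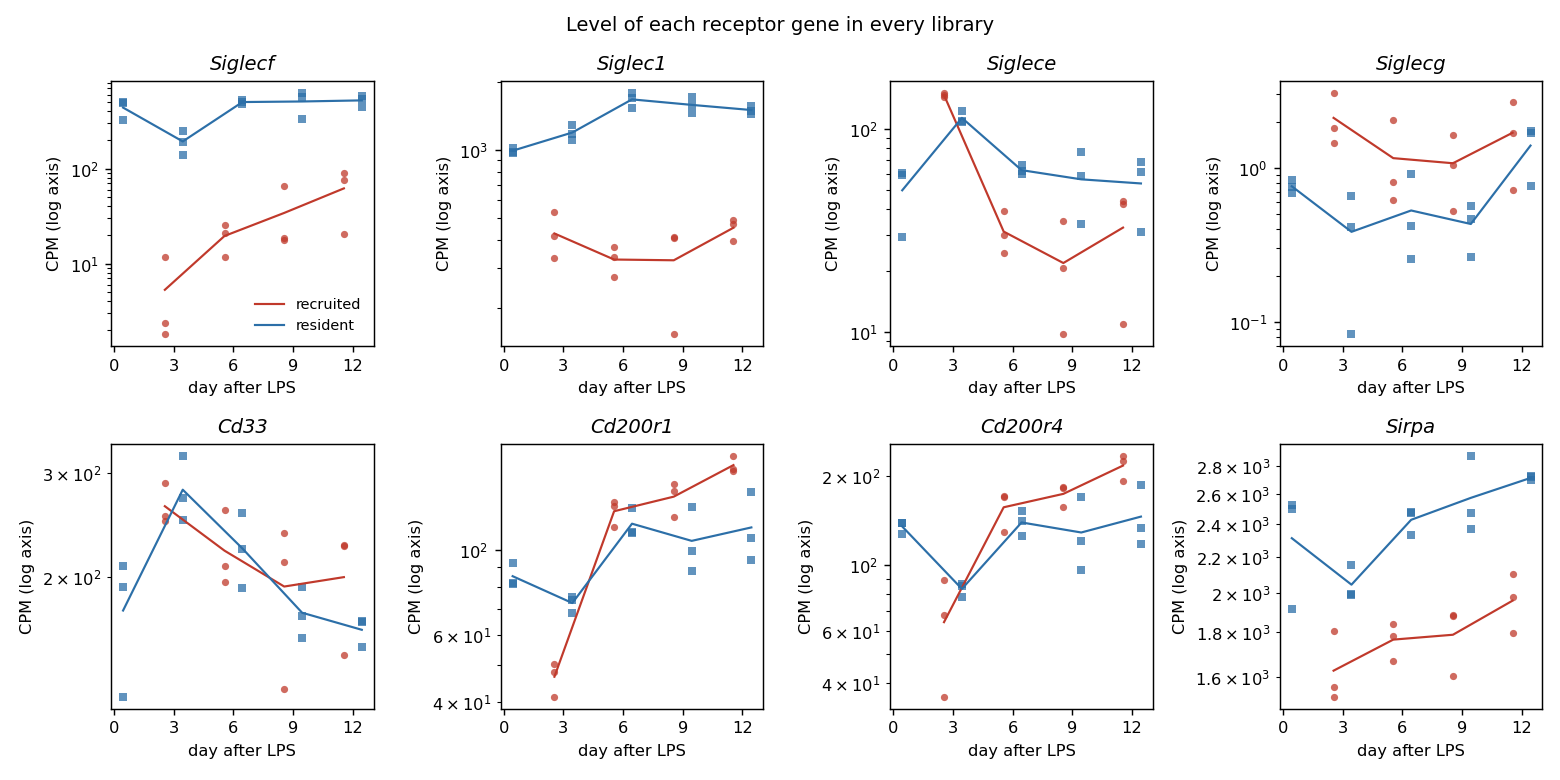
Level of each of the 8 genes in CPM (log axis) against the day after LPS. Each point is 1 library, recruited in red circles and resident in blue squares, slightly offset on either side of the day, and lines join the means of 3 libraries. Siglecf, Siglec1 and Sirpa lie lower in recruited than in resident libraries on each day, and the Cd200r1 and Cd200r4 lines cross between days 3 and 6.

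Siglecf, which encodes an ITIM-bearing Siglec of alveolar macrophages and eosinophils, differed most. The gene (ENSMUSG00000039013) lies on the plus strand at chr7:43351341-43359531 of GRCm38. In recruited cells it had 11.8, 2.35 and 1.82 CPM on day 3, 25.7, 11.8 and 21.2 CPM on day 6, 18.6, 17.6 and 66.2 CPM on day 9 and 20.5, 89.2 and 75.9 CPM on day 12. In resident cells it had 325, 503 and 484 CPM on day 0, 248, 191 and 139 CPM on day 3, 473, 529 and 499 CPM on day 6, 565, 335 and 622 CPM on day 9 and 441, 539 and 582 CPM on day 12. All 12 recruited libraries were below all 15 resident ones, and the highest recruited library (89.2 CPM) came closest to resident day 3 replicate 3 (139 CPM).

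The Siglecf change between recruited and resident cells was -5.16 ± 0.69 on day 3 (adjusted p = 4.66e-06), -4.67 ± 0.66 on day 6 (1.35e-05), -3.90 ± 0.64 on day 9 (7.45e-05) and -3.07 ± 0.61 on day 12 (0.000781). All 12 pairs of the same day and replicate number, which also share a run of numbers, were lower in recruited cells, with log2 differences of -6.28 to -2.59. Relative to day 3, Siglecf rose in recruited cells by 1.87 ± 0.64 on day 6 (adjusted p = 0.031), 2.66 ± 0.64 on day 9 (0.00298) and 3.53 ± 0.66 on day 12 (0.000242). Recruited day 3 replicate 1 set the size of this rise: without it the values were 3.23, 4.03 and 4.89, and the day 3 population difference was -6.53. Without recruited day 9 replicate 3 the rise on day 9 was 1.75, and the day 9 population difference was -4.81. The day 6 rise lost its call without any 1 of 4 libraries (recruited day 3 replicates 2 and 3, recruited day 6 replicates 1 and 3), without the filter on low counts (adjusted p = 0.065) and with only the 2 groups (0.132), and the day 9 rise lost it with only the 2 groups (2.68, adjusted p = 0.0773). The change of the population difference from day 3 to day 12 was 2.09 ± 0.84, which did not pass the test (adjusted p = 0.111) but did without recruited day 3 replicate 1 (3.46, adjusted p = 0.00934) or recruited day 12 replicate 1 (2.54, adjusted p = 0.0401). At the end of the course, recruited cells of day 12 still held less Siglecf than untreated resident cells, 61.9 ± 36.5 CPM against 437 ± 97.7 CPM (SD, n = 3 each; log2 change -2.82 ± 0.60, adjusted p = 0.0012).

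Among recruited libraries, Siglecf was highest where the median and the sum of 18 resident macrophage markers were highest. The 3 recruited libraries with most Siglecf, day 9 replicate 3 and day 12 replicates 2 and 3, had 66.2 to 89.2 CPM, and their median resident marker stood at 22% to 26.9% of the resident mean of the same day. The other 9 recruited libraries had 1.82 to 25.7 CPM of Siglecf, with a median marker of 2.51% to 16%. The summed level of the 18 markers was 11500 to 14100 CPM in those 3 libraries, against 3880 to 7130 CPM in the other 9. The markers did not all go the same way: on average over days, 16 were called lower in recruited cells and 1 higher (60.3% of all tested genes called). What part resident cells in the sorted fraction had in the Siglecf rise was not tested. Of 6 eosinophil markers, Prg3 and Epx, which encode granule proteins, had no count in any of the 27 libraries, and Ear6, a ribonuclease gene, alone passed the filter on low counts. Ear6, like Siglecf, was lower in recruited cells on average (-2.57, called). By day it was called on day 3 (-4.43) and not on days 6, 9 and 12 (-2.24, -1.45 and -2.16). In resident cells Ear6 moved against Siglecf, with 53.1 to 124 CPM on day 3 and 3.34 to 6.23 CPM on day 0 (4.30, called). The part of eosinophils in the Siglecf values was not tested.

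**Figure D2:**
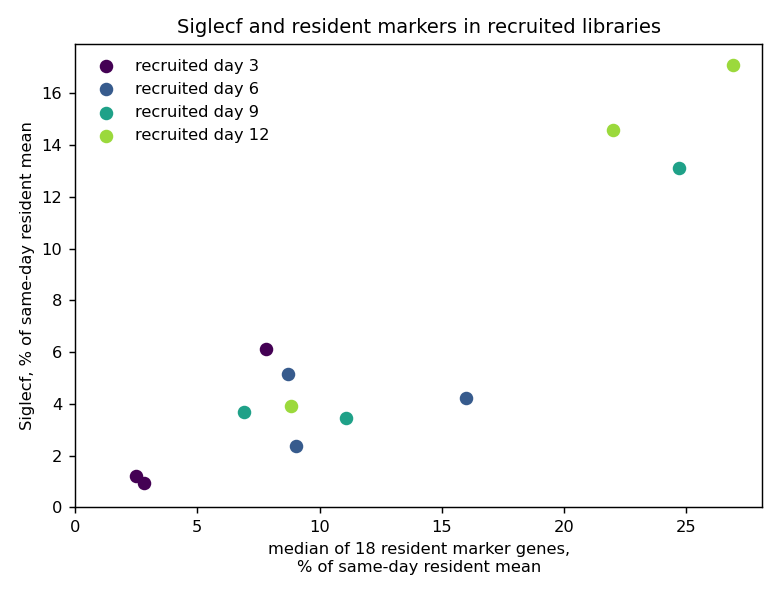
Siglecf in each of the 12 recruited libraries, as a percent of the mean of resident libraries of the same day, against the median of 18 resident marker genes on the same scale. The 3 libraries at upper right, with Siglecf at 13.1% to 17.1%, are day 9 replicate 3 and day 12 replicates 2 and 3.

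In resident cells, Siglecf stood at 193 ± 54.7 CPM on day 3 and 437 ± 97.7 CPM on day 0 (SD, n = 3 each). The libraries of day 3 (139 to 248 CPM) lay below those of day 0 (325 to 503 CPM), but the change of -1.18 ± 0.57 did not pass the test over all 27 libraries (adjusted p = 0.141). Fitted with only those 6 libraries it did (-1.19, adjusted p = 0.0105). From day 6 on, resident means were 500.2 to 520.8 CPM and overlapped day 0.

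Cd33 lies in the same cluster on chromosome 7 as Siglecf, Siglecg and Siglece, within 308821 bases of GRCm38. The Cd33 gene (ENSMUSG00000004609) lies on the minus strand at chr7:43524216-43544428, and its mouse protein, unlike the human one, lacks a typical ITIM. Cd33 did not separate the populations. It had 249, 289 and 254 CPM in recruited cells of day 3, 209, 260.1 and 197 CPM on day 6, 212, 129 and 238 CPM on day 9 and 148, 227 and 226 CPM on day 12. Resident cells had 126, 193 and 209 CPM on day 0, 250, 321 and 273 CPM on day 3, 192, 257 and 223 CPM on day 6, 172, 193 and 158 CPM on day 9 and 168, 152 and 168 CPM on day 12. The libraries of the populations overlapped on each of the 4 shared days. The average difference was 0.08 ± 0.10 (adjusted p = 0.49), and 6 of 12 pairs were lower and 6 higher in recruited cells. Cd33 was one of 2 members called in resident cells on day 3, where it rose to 281 ± 36.3 CPM, against 176 ± 44.1 CPM on day 0 (SD, n = 3 each; log2 change 0.68 ± 0.20, adjusted p = 0.0186). That call was lost without resident day 0 replicate 1 (0.49, adjusted p = 0.104) or resident day 3 replicate 2 (0.57, adjusted p = 0.0766), and with library-size scaling (0.61, adjusted p = 0.067).

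The promoters of Siglecf and Cd33 are shown because they share sequence, while Siglecf passed the test between populations and Cd33 did not. No other pair of promoters was searched for shared runs. RefSeq promoters (GRCm38.p6, 250 bases before to 50 after the start site) were found for 5 of the 8 genes, Siglecf, Siglece, Siglecg, Cd33 and Cd200r4. Capitals mark the 3 runs of at least 12 bases that the Siglecf window, chr7:43351091-43351390 on the plus strand, shares with the Cd33 window, chr7:43533122-43533421 on the minus strand, both printed 5′ to 3′. The Cd33 window lies inside the gene span given above, away from its 5′ end at base 43544428. It therefore does not match the gene model used for position and exon length. The Cd200r4 window, chr16:44820478-44820777, also lies inside its gene.
Siglecf: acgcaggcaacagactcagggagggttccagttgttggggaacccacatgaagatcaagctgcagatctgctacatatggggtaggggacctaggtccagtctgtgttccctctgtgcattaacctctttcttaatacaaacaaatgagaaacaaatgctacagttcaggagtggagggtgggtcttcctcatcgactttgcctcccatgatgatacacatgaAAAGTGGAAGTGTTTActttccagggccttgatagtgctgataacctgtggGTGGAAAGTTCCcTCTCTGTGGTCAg
Cd33: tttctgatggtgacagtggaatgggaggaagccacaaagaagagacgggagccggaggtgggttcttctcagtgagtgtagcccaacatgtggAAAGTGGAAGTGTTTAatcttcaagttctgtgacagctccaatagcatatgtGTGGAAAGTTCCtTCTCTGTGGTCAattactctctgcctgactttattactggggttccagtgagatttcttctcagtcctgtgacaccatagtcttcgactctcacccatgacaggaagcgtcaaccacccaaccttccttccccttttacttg
The runs come in the same order in both windows, of 16, 12 and 12 bases, and begin at bases 224, 275 and 288 in Siglecf and at bases 94, 146 and 159 in Cd33. On either strand, GTGGAAGTGT from the first run occurred in 29 of 27025 mouse promoters of this length (0.107%) and GGAAAGTTCC from the second in 26 (0.0962%). Both motifs were cut from the shared runs, so their presence in Siglecf and Cd33 was fixed in advance and the frequencies do not test it. No other of the 5 windows held either motif. The 2 motifs do not overlap in the Siglecf and Cd33 windows. The myeloid-type motif GAGGAAGT (3.28% of promoters), which shares the letters GGAAGT with the first motif, was in none of the 5 windows. These are matches of letters only. Of the other genes between Siglecf and Siglece, Etfb, a mitochondrial electron carrier subunit, was also lower in recruited cells (average -0.97 ± 0.07, adjusted p = 3.49e-11), as was the low Vsig10l (-0.72 ± 0.11, adjusted p = 3.54e-06). Both were singled out after their values were seen.

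Siglece, an ITIM-bearing Siglec of neutrophils, monocytes and macrophages, was high on day 3 in both populations and then fell in recruited cells. The gene (ENSMUSG00000030474) lies on the minus strand at chr7:43651070-43660161. Recruited cells had 142, 149 and 147 CPM on day 3, 29.8, 39.2 and 24.3 CPM on day 6, 20.6, 9.75 and 35.0 CPM on day 9 and 10.9, 44.1 and 42.7 CPM on day 12. Resident cells had 29.3, 59.3 and 60.4 CPM on day 0, 122, 109 and 107 CPM on day 3, 59.7, 65.8 and 61.7 CPM on day 6, 58.2, 33.8 and 76.7 CPM on day 9 and 31.1, 61.3 and 68.6 CPM on day 12. The 3 libraries of day 3 lay above all other libraries of their population, in recruited and in resident cells alike. Lowest within each population were libraries of the shared number run and an untreated one: 9.75 and 10.9 CPM in recruited and 31.1 and 33.8 CPM in resident cells of that run, and 29.3 CPM in resident day 0 replicate 1.

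Against day 3, Siglece in recruited cells fell by 2.24 ± 0.46 on day 6 (adjusted p = 0.000943), by 2.75 ± 0.47 on day 9 (0.000125) and by 2.16 ± 0.46 on day 12 (0.000861). In resident cells the day 3 value against day 0 was 1.18 ± 0.45 (adjusted p = 0.0595), which passed only with a term for the number run (1.23, adjusted p = 0.000293), with only the 6 libraries concerned (1.17, adjusted p = 0.0152), by DESeq2 (1.18, adjusted p = 0.0219) or without any 1 of 3 other libraries. Between populations, recruited cells were at 0.37 ± 0.44 relative to resident cells on day 3 (adjusted p = 0.509), with the 3 libraries of each apart, and passed with only these 6 libraries (0.34, adjusted p = 0.0146). The later values were -1.01 ± 0.45 on day 6 (adjusted p = 0.0912), -1.37 ± 0.46 on day 9 (0.0258) and -0.71 ± 0.45 on day 12 (0.267). Blocked by day and replicate number, Siglece was lower in recruited cells on day 6 (-1.04, adjusted p = 0.000293) and day 12 (-0.86, adjusted p = 0.00188) as well. Within pairs, all 3 of day 3 were higher in recruited cells (0.23 to 0.45) and all 9 of days 6 to 12 lower (-1.78 to -0.48). The day 9 call was lost without any 1 of 4 day 9 libraries (resident replicates 1 and 3, recruited replicates 1 and 2; -1.35 to -1.02, adjusted p = 0.0558 to 0.118), with library-size scaling (adjusted p = 0.052), without the filter (0.0597) and with only the 2 groups (0.103). The 10 neutrophil markers summed to 243 to 704 CPM in recruited libraries, with the highest sum on day 3, against 87.7 to 149 CPM in resident libraries. Ly6g, which defines neutrophils, was at 0 in recruited cells of days 6, 9 and 12 and in resident cells on each day but day 3, and the markers' part in the Siglece values was not tested. Of 13 classical monocyte markers, 10 rose in resident cells on day 3 against day 0 (median 3.24, background 13.3% higher). In recruited cells 8, 8 and 10 fell on days 6, 9 and 12 against day 3 (medians -2.07, -2.05 and -3.39), with 1 higher on each day. Of all tested genes, 31.9%, 36.3% and 39.3% were called in either direction in these recruited comparisons. The summed level of the 13 markers did not fall in recruited cells, with medians of 14100 CPM on day 3 and 21000, 17500 and 14900 CPM on days 6, 9 and 12. In resident cells its median was 1710 CPM on day 0 and 4870 CPM on day 3. The part of monocytes in the Siglece values was not tested either. The population difference changed from day 3 to day 12 by -1.09 ± 0.63 (adjusted p = 0.272), and by -1.19 with the block (adjusted p = 0.00384).

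Siglec1, or sialoadhesin, a large adhesion receptor of tissue macrophages, was the second gene with a lower level in recruited cells on each day. The gene (ENSMUSG00000027322) lies on the minus strand at chr2:131069220-131086765. Recruited cells had 331, 414 and 532 CPM on day 3, 335, 274 and 369 CPM on day 6, 153, 412 and 407 CPM on day 9 and 490.5, 396 and 468 CPM on day 12. Resident cells had 981, 1020 and 969 CPM on day 0, 1105, 1179 and 1292 CPM on day 3, 1782, 1695 and 1535 CPM on day 6, 1449, 1577 and 1715 CPM on day 9 and 1569, 1436 and 1491 CPM on day 12. The highest recruited library (532 CPM) lay below the lowest resident one (969 CPM). The average difference was -1.97 ± 0.12 (adjusted p = 1.86e-12), and it ranged from -2.36 ± 0.24 on day 6 (adjusted p = 9.14e-08) to -1.49 ± 0.24 on day 3 (adjusted p = 1.81e-05). Recruited cells of day 12 were also below untreated resident cells (-1.13 ± 0.23, adjusted p = 0.000614).

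In resident cells, all 12 libraries taken after LPS had more Siglec1 than the 3 untreated ones. The changes were 0.27 ± 0.23, 0.75 ± 0.23, 0.67 ± 0.23 and 0.60 ± 0.23 on days 3, 6, 9 and 12, with adjusted p = 0.429, 0.0535, 0.12 and 0.261, so none passed the test over all libraries. Day 6 passed by DESeq2 (0.75, adjusted p = 0.0234), with the run term (0.76, adjusted p = 0.0263) and with only the 6 libraries concerned (0.73, adjusted p = 0.00206), as did days 9 and 12 in fits of their own 6 libraries (0.66 and 0.58, adjusted p = 0.0458 and 0.0307). Without recruited day 9 replicate 1, whose Siglec1 level was the lowest of all at 153 CPM, days 6, 9 and 12 each passed (adjusted p = 0.00165, 0.00635 and 0.0275).

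Siglec1 is known as an interferon-inducible gene, and its course was set beside that of 26 listed type I interferon-stimulated genes. In resident cells 23 of the 26 rose on day 3 against day 0, against 13.3% of all tested genes higher, with a median change of 1.98 and a range of 0.41 to 4.75, all above the 0.27 ± 0.23 of Siglec1. On day 6 their median was 0.47 while Siglec1 stood at 0.75 ± 0.23, and on day 12 it was -0.22 while Siglec1 stood at 0.60 ± 0.23. In recruited cells all 26 fell from their day 3 level on days 6, 9 and 12 (31.9%, 36.3% and 39.3% of all tested genes were called in either direction), with medians of -2.95, -4.30 and -4.23. Siglec1 was at -0.38, -0.39 and 0.08 on those days (each ± 0.23), outside the range of the 26 genes and not called. On day 3 itself, all 26 were higher in recruited than in resident cells (median 2.14, background 23.2% higher), where Siglec1 was lower. What part interferon had in the Siglec1 values was not tested.

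**Figure D3:**
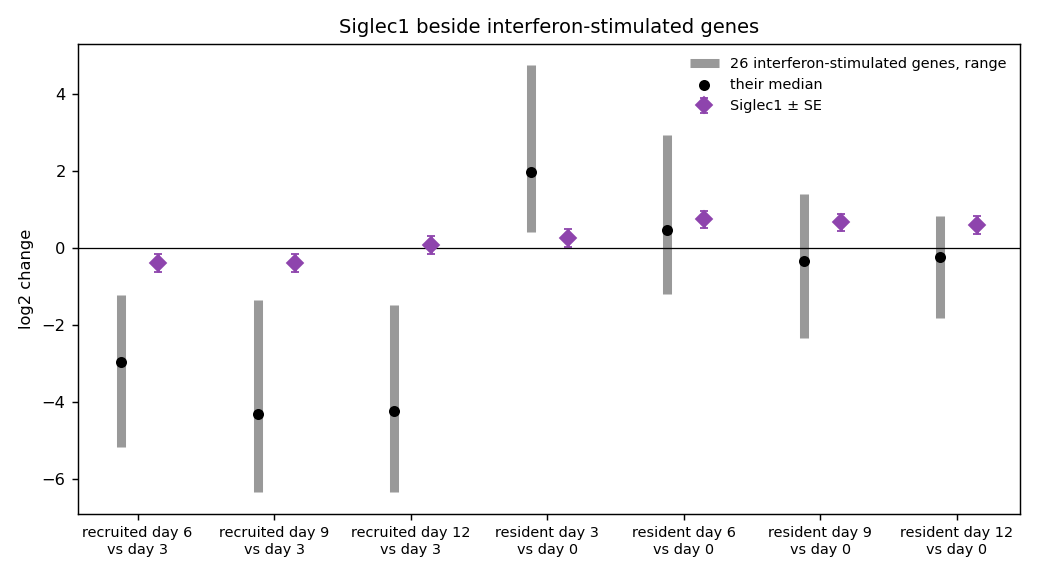
Log2 change of Siglec1 (diamonds, ± standard error) beside the range (grey bars) and median (black points) of 26 interferon-stimulated genes, in recruited cells against day 3 at left and in resident cells against day 0 at right. Siglec1 lies outside the bars in the 3 recruited comparisons and in resident cells on day 3.

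Siglecg, an ITIM-bearing Siglec known mainly from B cells and dendritic cells, was near the limit of detection. The gene (ENSMUSG00000030468) lies on the plus strand at chr7:43408204-43418358. It had 0.525 to 3.06 CPM in recruited libraries (median 1.55), against 0.0834 to 1.73 CPM in resident libraries of days 3 to 12 (median 0.516). The ranges overlapped over all days but not on day 3, where recruited cells had 1.82, 3.06 and 1.46 CPM and resident cells 0.656, 0.0834 and 0.414 CPM. The average difference was 1.27 ± 0.30 (adjusted p = 0.000852) and the day 3 difference 2.38 ± 0.62 (adjusted p = 0.00289). The other 3 days did not pass, with 1.08 ± 0.62 on day 6 (adjusted p = 0.191), 1.32 ± 0.62 on day 9 (0.109) and 0.30 ± 0.54 on day 12 (0.734), which turned to -0.20 without recruited day 12 replicate 3. Summed over 8 B cell markers, recruited libraries had 0.928 to 2.18 CPM and resident libraries 0.25 to 1.43 CPM, and Pax5, which defines B cells, was among those at or near 0. The sum of 6 plasmacytoid dendritic cell markers was 28.4 to 80.9 CPM in recruited libraries, against 8.92 to 19.8 CPM in resident libraries. All 3 tested were higher on average, where 60.3% of all tested genes were called. The sum of 7 other dendritic cell markers was 6.78 to 19.3 CPM in recruited libraries, against 3.92 to 23.6 CPM in resident libraries. Of 8 tested T and NK cell markers, 6 were higher on average, against the same background of 60.3%. All 10 T and NK cell markers summed to 2.54 to 17.3 CPM in recruited libraries, against 0.252 to 7.37 CPM in resident libraries. The part of these cells in the Siglecg values was not tested.

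Cd200r1, the inhibitory receptor for CD200, changed side between populations. The gene (ENSMUSG00000022667) lies on the plus strand at chr16:44765736-44794978. Recruited cells had 48.1, 50.5 and 41.3 CPM on day 3, 134, 130.4 and 115 CPM on day 6, 122, 143 and 149 CPM on day 9 and 163, 176 and 161 CPM on day 12. Resident cells had 81.6, 82.0 and 92.5 CPM on day 0, 75.3, 74.2 and 68.5 CPM on day 3, 129, 111 and 112 CPM on day 6, 99.3, 129.5 and 88.1 CPM on day 9 and 142, 107 and 94.1 CPM on day 12. Recruited libraries were the lowest of all on day 3 and the highest of all on day 12, with no overlap with resident libraries of the same day.

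The Cd200r1 difference between recruited and resident cells was -0.64 ± 0.14 on day 3 (adjusted p = 0.000646), 0.11 ± 0.14 on day 6 (0.591), 0.38 ± 0.14 on day 9 (0.0363) and 0.54 ± 0.14 on day 12 (0.00496). The day 9 call was lost without any 1 of 4 day 9 libraries (resident replicates 1 and 3, recruited replicates 2 and 3; 0.27 to 0.36, adjusted p = 0.0866 to 0.196) and with only the 2 groups (0.39, adjusted p = 0.164). In the main edgeR fit, with neither block nor run term, only Cd200r1 of the 8 genes was called for a changing population difference. The change was 1.18 ± 0.20 from day 3 to day 12 (adjusted p = 0.000384, background 13.6%). The F test over the 4 days passed too (adjusted p = 0.00114, background 10.7%). With the block, Cd200r4 (1.09, adjusted p = 0.0383), Siglecg (-2.06, adjusted p = 0.032) and Siglece were called too for day 12 minus day 3, and Siglece in the F test (adjusted p = 0.00103). The run term called these genes too for day 12 minus day 3, Cd200r4 at 1.01 (adjusted p = 0.0129), Siglece at -1.21 (0.00879) and Siglecg at -2.06 (0.038). With the run term, the F test called Siglece (adjusted p = 0.00164) and Cd200r4 (0.0442). For day 12 minus day 3, Cd200r4 was also called by DESeq2 (0.96, adjusted p = 0.0294) and with library-size scaling (1.07, adjusted p = 0.0335). Against their own day 3, recruited cells rose in Cd200r1 by 1.44 ± 0.14, 1.56 ± 0.14 and 1.84 ± 0.14 on days 6, 9 and 12, with adjusted p = 9.06e-08, 1.75e-08 and 1.15e-09. By day 12 they were above untreated resident cells by 0.96 ± 0.14 (adjusted p = 1.16e-05).

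Cd200r4, the DAP12-coupled relative, lies next to Cd200r1 within a window of 73415 bases and took a similar course. The gene (ENSMUSG00000062082) lies on the plus strand at chr16:44811733-44839150. Recruited cells had 88.8, 67.7 and 35.9 CPM on day 3, 171, 171 and 129 CPM on day 6, 182, 157 and 183 CPM on day 9 and 234, 224 and 193 CPM on day 12. Resident cells had 139, 128 and 139 CPM on day 0, 84.9, 86.2 and 78.3 CPM on day 3, 153, 125 and 141 CPM on day 6, 121, 170 and 96.4 CPM on day 9 and 187, 134 and 118 CPM on day 12. Day 3 was the low point of both populations, and resident libraries of that day lay below all 3 of day 0. Recruited cells rose against day 3 by 1.29 ± 0.23, 1.44 ± 0.24 and 1.76 ± 0.24, with adjusted p = 0.000221, 5.07e-05 and 4.05e-06. Resident cells fell on day 3 against day 0 by 0.70 ± 0.23 (adjusted p = 0.0317), a call lost without any 1 of 6 libraries, the 3 of day 0 and the 3 of day 3, and without the filter (adjusted p = 0.0668). On day 12, recruited cells stood at 0.57 ± 0.23 relative to resident cells, which did not pass the test (adjusted p = 0.0687). It did with the run term (0.60, adjusted p = 0.0203), by DESeq2 (0.60, adjusted p = 0.0402) and without any 1 of 5 libraries. The change of the population difference from day 3 to day 12 was 0.95 ± 0.33 (adjusted p = 0.0578). Recruited cells of day 12 were above untreated resident cells by 0.68 ± 0.23 (adjusted p = 0.0267). That call was lost without any 1 of 5 libraries and with library-size scaling (0.58, adjusted p = 0.0554).

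The 2 CD200 receptors were close in profile. Across the 9 group means of log2 CPM, each centred on its own mean, Cd200r4 was the second closest to Cd200r1 of 10568 genes compared (root mean square difference 0.126, against a median of 0.591 over all genes), after Maml2 (0.113). Cbx7 was closest to Cd200r4 (0.117). For Siglecf, Slc6a4 (0.160), Sec14l2 (0.195) and C530008M17Rik (0.240) were closest, for Siglec1 Slamf9 (0.170), Ly75 (0.184) and Actn1 (0.212), and for Siglece Cdc42ep2 (0.218), Pilrb2 (0.225) and Fpr2 (0.229). For Sirpa they were Dnase2a (0.044), Brat1 (0.045) and Prepl (0.049). Reads of near-identical members of the Cd200r and Sirp families could be left out or assigned to the wrong member. The values of Cd200r1, Cd200r4, Cd200r2 and Sirpa are uncertain to that extent.

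Sirpa, the ITIM-bearing receptor for CD47, was the most abundant of the 8 per length of exon in all 9 groups, and was lower in recruited cells by a small margin. The gene (ENSMUSG00000037902) lies on the plus strand at chr2:129592835-129632228. Recruited cells had 1806, 1556 and 1517 CPM on day 3, 1670, 1785 and 1843 CPM on day 6, 1601, 1885 and 1881 CPM on day 9 and 1797, 2101 and 1980 CPM on day 12. Resident cells had 1915, 2526 and 2498 CPM on day 0, 2151, 1993 and 1989 CPM on day 3, 2332, 2475 and 2480 CPM on day 6, 2368, 2476 and 2880 CPM on day 9 and 2698, 2719 and 2728 CPM on day 12. Recruited libraries lay below the resident libraries of their own day on all 4 days. The changes were -0.33 ± 0.12, -0.46 ± 0.12, -0.53 ± 0.12 and -0.47 ± 0.12 on days 3, 6, 9 and 12, with adjusted p = 0.0228, 0.0032, 0.00112 and 0.00381. The day 3 call was lost without any 1 of 3 day 3 libraries (-0.30 to -0.28, adjusted p = 0.0786 to 0.0894) and without the filter (adjusted p = 0.0515), and the day 9 call with only the 2 groups (-0.52, adjusted p = 0.0678). Recruited cells of day 12 were at 0.27 ± 0.12 against day 3 (adjusted p = 0.0696), which passed by DESeq2 (adjusted p = 0.0321) and with library-size scaling (0.36, adjusted p = 0.0294). All 12 pairs were lower in recruited cells, with log2 differences of -0.61 to -0.25.

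**Figure D4:**
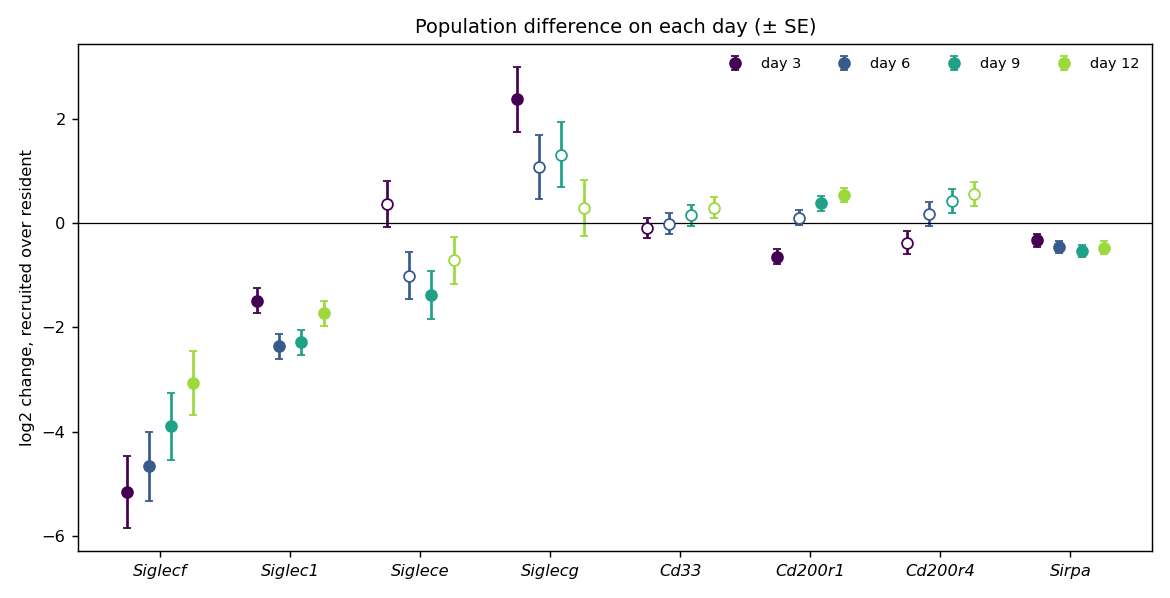
Log2 change, recruited over resident, for each gene on days 3, 6, 9 and 12 (± standard error). Filled points have an adjusted p under 0.05 and open points do not. Siglecf runs from -5.16 on day 3 to -3.07 on day 12, and Cd200r1 crosses from -0.64 to 0.54.

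Within populations the courses have different starting points, day 3 for recruited and day 0 for resident cells. Recruited cells had 4 of 8 genes called against day 3 on days 6, 9 and 12 (background 31.9%, 36.3% and 39.3%), and on each day they were Siglecf, Cd200r1 and Cd200r4, which rose, and Siglece, which fell. Resident cells had 2 of 8 called against day 0 on day 3 (23.8%). On days 6, 9 and 12 edgeR called none of the 8 (6.42%, 3.49% and 1.30%), while 2 had an unadjusted p under 0.05 on each of these days, and DESeq2 called 2, 0 and 0. These resident comparisons share the day 0 libraries and the recruited ones the day 3 libraries. Against untreated resident cells, recruited cells of day 12 had 4 of 8 called (31.0%), Cd200r1 and Cd200r4 higher and Siglecf and Siglec1 lower.

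**Figure D5:**
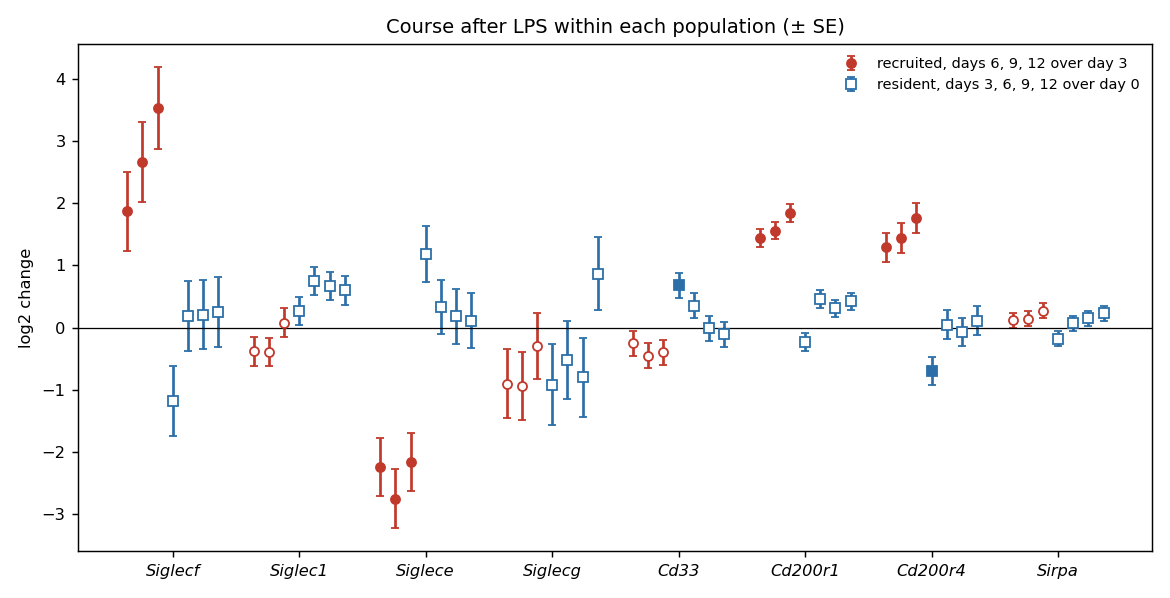
Log2 change within each population (± standard error). For each gene, 3 red circles give recruited cells on days 6, 9 and 12 against day 3, and 4 blue squares give resident cells on days 3, 6, 9 and 12 against day 0, from left to right. Filled points have an adjusted p under 0.05.

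Levels per kilobase of exon gave the order among the 8 genes. In recruited cells of day 12 it was Sirpa (399 ± 31.2 CPM per kb), Cd200r4 (106 ± 10.6), Siglec1 (63.2 ± 6.89), Cd200r1 (49.8 ± 2.51), Cd33 (25.8 ± 5.83), Siglecf (22.2 ± 13.1), Siglece (17.6 ± 10.2) and Siglecg (0.352 ± 0.204; SD, n = 3). In untreated resident cells it was Sirpa (471 ± 70.2 CPM per kb), Siglecf (157 ± 35.0), Siglec1 (139 ± 3.77), Cd200r4 (66.1 ± 3.2), Siglece (26.9 ± 9.55), Cd200r1 (25.5 ± 1.84), Cd33 (22.6 ± 5.67) and Siglecg (0.158 ± 0.0152). Siglecf thus ranked second in untreated resident cells and sixth in recruited cells of day 12.

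Other receptors of these families were counted from a list of 29, of which 25 were tested. On average 13 were higher and 8 lower in recruited cells (60.3% of all tested genes called). CD22, a sialic acid-binding receptor best known from B cells, had 33.7 ± 15.1 CPM of Cd22 in recruited cells of day 3, against 178 ± 18.8 CPM in resident cells (SD, n = 3 each; -2.40 ± 0.22, adjusted p = 8.91e-09). Recruited cells reached 225 ± 16.9 CPM of Cd22 on day 12 (against day 3, 2.74, adjusted p = 1.77e-09), and 274 ± 11.9 CPM was measured in resident cells then. Its population difference changed by 2.12 ± 0.29 from day 3 to day 12 (adjusted p = 7.31e-05). Lilra5, an activating-type leukocyte immunoglobulin-like receptor, was lower in recruited cells on average (-3.71 ± 0.20, adjusted p = 2.03e-12). Cd72 (3.27 ± 0.32, adjusted p = 1.31e-08) and Pecam1 (3.00 ± 0.28, adjusted p = 2.62e-09), both ITIM-bearing, were higher. Cd200r2, another gene of the CD200 receptor family, was low but rose in recruited cells to 8.38 ± 2.71 CPM on day 12, against 0.299 ± 0.202 CPM on day 3 (4.80 ± 0.69, adjusted p = 7.24e-06).

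Of 22 genes for the signalling steps below these receptors, 12 were called on day 3 between populations and all 12 were higher in recruited cells (background 23.2% higher). Averaged over days 10 were higher and 7 lower (60.3% of all tested genes called). Src, a kinase of the family that phosphorylates ITIMs, was higher on average by 3.66 ± 0.20 (adjusted p = 1.63e-12), and Fyb, an adaptor, by 3.98 ± 0.19 (adjusted p = 1.68e-13). Ptpn6, which encodes SHP-1, fell in recruited cells to 315 ± 30.2 CPM on day 6, against 628 ± 21.6 CPM on day 3 (-1.0 ± 0.12, adjusted p = 1.78e-06). By day 12, 12 signalling genes had fallen in recruited cells (background 19.5% lower). They included Socs3, a suppressor of cytokine signalling (-2.45 ± 0.54, adjusted p = 0.00121), and Dok1, an adaptor of CD200R1 (-0.93 ± 0.13, adjusted p = 7.93e-06). Tyrobp, which encodes DAP12, was at -0.02 on average (adjusted p = 0.872), and is named after its value was seen.

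Of 8 ligand genes 7 were tested, and 1 was higher and 3 lower in recruited cells on average, near the 60.3% of all tested genes called. Cd200 was lower, at -1.78 ± 0.15 (adjusted p = 1.15e-09), with 14.5 ± 3.04 CPM in recruited and 40.2 ± 5.28 CPM in resident cells on day 12 (SD, n = 3 each). Cd47, the ligand of SIRPα, was lower, at -0.46 ± 0.07 (adjusted p = 1.15e-05), and so was Spn, a sialylated mucin-type glycoprotein, at -0.93 ± 0.12 (adjusted p = 5.15e-07). Thbs1, which encodes thrombospondin, a ligand of CD47, was higher by 6.62 ± 0.48 (adjusted p = 2.72e-10). Of 29 genes for making, transferring or removing sialic acid 21 were tested, and 8 were higher and 5 lower on average, near the 60.3% of all tested genes called. The sialyltransferase genes St3gal5 (4.87 ± 0.33, adjusted p = 4.24e-11) and St8sia4 (2.04 ± 0.11, adjusted p = 4.7e-13) were higher in recruited cells. St6gal1, which adds α2,6-linked sialic acid, was lower on day 3 (-2.42 ± 0.63, adjusted p = 0.00381).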

How the data were processed

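RNA of sorted recruited and resident alveolar macrophages was prepared with a stranded poly(A) kit and sequenced on an Ion Proton, per the labels' protocols, 27 libraries in 9 groups of 3. The deposited values are raw read counts per gene, 1 column per library, for 38124 genes (36345 with a symbol). Per the submitters' processing notes, the build was mm10 and the tools, listed without roles, included HTSeq 0.6.0, STAR 2.4.0a, R 3.1.0 and version 1.4.5 of DESeq2. Not given in the sources used here were the strand option, the annotation release and any use of Siglec-F in the sort. Reads of antisense or near-identical genes may have been left out or assigned to the wrong gene.

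From the deposited counts, edgeR 4.0.16 (R 4.3.3, limma 3.58.1) fitted 1 mean per group over all 27 libraries with TMM scaling and robust quasi-likelihood dispersions, 18 residual degrees of freedom. Genes passed a filter of 10 counts (15 in total), which left 13599, and p-values were adjusted over these at 0.05. With 3 libraries against 3, an exact permutation test of a single gene cannot go below p = 0.1, so none is given. Gene positions come from GRCm38, and kb refers to merged exons. Alternatives were DESeq2 1.42.0, RLE and library-size scaling, no filter, only the groups compared, a replicate block, a covariate for runs of the leading column numbers, and each library left out. Borders between the runs were drawn by eye.

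Replicate numbers were taken to pair libraries of a day: all 12 pairs had correlated deviations (r 0.17 to 0.52) and each library fitted best with its own number. This comes from the data, since no label states it. Members and gene lists were chosen with earlier results of these data known. Named genes outside the 8 were up to 4 per list and comparison by size of change, among called genes whose libraries did not overlap, and for each member the 3 genes of most similar profile.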

Additional observations from a re-analysis of the deposited data

Results flagged for a closer look

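The Cd200r1 difference between recruited and resident cells differed between days. The interaction was 1.18 ± 0.20 on the log2 scale for day 12 minus day 3 (adjusted p = 0.000384) and had an adjusted p of 0.00114 over the 4 days, both from edgeR, quasi-likelihood, adjusted by Benjamini-Hochberg. The difference was negative in 3 of 3 pairs on day 3 and positive in 9 of 9 on days 6 to 12.

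Reads outside annotated genes made up 26.5% in recruited day 6 replicate 2, against 9.16% to 11.2% in untreated libraries. In that library Siglecf (11.8 CPM) and Siglec1 (274 CPM) were the lowest of the 3 recruited libraries of day 6. Siglece (39.2 CPM), Siglecg (2.04 CPM), Cd33 (260.1 CPM) and Cd200r4 (170.8 CPM) were the highest, and Cd200r1 and Sirpa lay between.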

How the results depend on the processing

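Of 120 comparisons of single members, 69 kept their direction and side of the threshold under every alternative run. Directions turned only for values that were not called. With the run covariate Siglec1 (-0.04) and Siglecg (0.06) in recruited day 12 against day 3, and Cd33 in resident day 9 against day 0 (0.11), turned. Cd33 on day 6 between populations was 0.01 by RLE scaling and by DESeq2, and with library-size scaling resident day 6 against day 0 was -0.05 for Cd200r4 and -0.03 for Sirpa.

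With libraries left out one at a time, ranges that crossed zero were as follows. Between populations they were -0.17 to 0.01 (day 3), -0.13 to 0.09 (day 6) and -0.03 to 0.36 (day 9) for Cd33, and -0.20 to 0.66 (day 12) for Siglecg. Against day 3, recruited day 12 gave -0.07 to 0.28 for Siglec1 and -0.79 to 0.08 for Siglecg. Against day 0, resident cells gave -0.11 to 0.43 (day 9) and -0.16 to 0.36 (day 12) for Siglece, -0.20 to 0.13 and -0.30 to 0.04 for Cd33 on the same days, -0.05 to 0.12 (day 6), -0.33 to 0.10 (day 9) and -0.14 to 0.25 (day 12) for Cd200r4, and -0.05 to 0.14 (day 6) for Sirpa. Recruited day 12 against resident day 0 gave -0.01 to 0.36 for Cd33.

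Members called on day 9 between populations were 2 with only those groups, and 3 to 6 with a library left out. In resident day 3 they were 1 with library-size scaling, 1 without the filter, 4 with only those groups and 0 to 3 with a library left out. In resident day 6 they were 2 with the run covariate, with only those groups and by DESeq2 (0 to 2 left out), and in resident days 9 and 12 1 each with only those groups (0 to 1 left out). For the change from day 3 to day 12 they were 2 with library-size scaling and DESeq2, 4 with the run covariate and 4 with the replicate block (1 to 3 left out), and over days 3 with the covariate and 2 with the block (1 to 3 left out).

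Over all genes, only the groups compared gave 2497 calls on day 9 against 4351, 1446 in resident day 6 against 873, 122 in resident day 9 against 474, and 2772 in recruited day 9 against 4933. The run covariate gave 1586, 1076 and 379 in resident days 6, 9 and 12 (177 on day 12 without it), and DESeq2 813 and 398 on days 9 and 12. For day 12 minus day 3, 1853 became 2818 with the covariate and 2946 with the replicate block, and over days 1449 became 2483 and 2471. With a library left out the ranges were 1897 to 3511 (resident day 3), 450 to 1029 (day 6), 167 to 591 (day 9), 75 to 222 (day 12) and 897 to 1679 (over days). The replicate block also called Siglece on days 6 and 12. The cause was not tested. Fits of only the compared groups and with a library left out use fewer libraries, and they gave fewer calls in some comparisons and more in others.

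Library-size scaling moved 3 of 72 levels by more than 1 SD: Siglec1 in resident day 0 (1060 CPM), Siglece in recruited day 3 (137 CPM) and Cd200r4 in resident day 0 (144 CPM). Depth limits Siglecg most.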
